A study of Arabidopsis thaliana with 12 samples.

Results

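The genes described here encode the 26S proteasome of Arabidopsis thaliana and a pair of transcription factors, NAC053 and NAC078. The set was defined by locus: 8 genes for the lid and 13 for the base of the regulatory particle (RPN and RPT genes), 9 genes for the alpha ring and 7 for the beta ring of the core particle (PA and PB genes), and the 2 NAC genes. These 39 genes were all found among the 33602 gene loci of the count tables, which list 87128 reference sequences in all, and all 39 passed the filter on low counts.

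The 26S proteasome degrades proteins that carry ubiquitin chains. Its base unfolds the substrate with a ring of RPT ATPases, its lid removes the ubiquitin chain through RPN11, and the substrate is cut inside the core by the beta subunits PBA1, PBB and PBE, while the alpha ring gates the entrance. NAC053 and NAC078 are NAC domain factors with a membrane anchor that are known in Arabidopsis to bind a TGGGC element in proteasome gene promoters and to raise those genes when the proteasome is impaired. Heat unfolds proteins, and plant heat responses are known to involve both chaperones and proteolysis.

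RNA was sequenced from whole seedlings of wild-type Col-0 grown in liquid culture, after removal of ribosomal RNA, in 12 libraries that form 4 groups of 3. The primed heat shock group was 7 days old and had received 38 °C for 2 h, 21 °C for 22 h and then 43 °C for 30 min. The heat shock group was 7 days old and had received 43 °C for 30 min without pretreatment. The priming group was 6 days old and had received 38 °C for 30 min, and the control group was 6 days old and untreated. The priming group therefore had a shorter time at 38 °C than the pretreatment of the primed heat shock group, and was harvested with no recovery. Against the control and priming groups, heat at 43 °C and the extra day of age cannot be told apart. A general protocol gives 2 h for the heat treatments, and the 30 min used here is that of the group labels. Replicate numbers stand for 3 harvest dates, and since no label ties them to separate cultures, the p-values may reflect technical spread alone. In bulk tissue, fewer cells of a type and less RNA per cell cannot be told apart.

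The promoters of 5 genes are shown because they hold, or lack, the element that the NAC factors are known to bind. Each line is the 250 bases before the annotated gene start, from RefSeq, build TAIR10.1, written from 5′ to 3′ on the gene's strand, which is the plus strand for all 5. Capitals mark TGGGC and the heat shock element core GAANNTTC on either strand. The windows are chr5:1243434-1243683 for NAC078, chr3:3270967-3271216 for NAC053, chr1:10180052-10180301 for the lid gene RPN6, chr4:15188494-15188743 for the beta gene PBA1, and chr4:14312033-14312282 for the base gene RPT2a.
NAC078: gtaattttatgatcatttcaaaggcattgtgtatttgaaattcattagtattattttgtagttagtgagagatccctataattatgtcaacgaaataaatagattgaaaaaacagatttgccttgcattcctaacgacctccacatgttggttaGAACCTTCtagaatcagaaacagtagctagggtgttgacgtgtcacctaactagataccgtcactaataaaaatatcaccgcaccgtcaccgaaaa
NAC053: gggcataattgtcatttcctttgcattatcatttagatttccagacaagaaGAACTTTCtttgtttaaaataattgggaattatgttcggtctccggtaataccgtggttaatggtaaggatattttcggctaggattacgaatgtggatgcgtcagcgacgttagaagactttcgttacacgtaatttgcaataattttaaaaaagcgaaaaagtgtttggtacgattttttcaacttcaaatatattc
RPN6: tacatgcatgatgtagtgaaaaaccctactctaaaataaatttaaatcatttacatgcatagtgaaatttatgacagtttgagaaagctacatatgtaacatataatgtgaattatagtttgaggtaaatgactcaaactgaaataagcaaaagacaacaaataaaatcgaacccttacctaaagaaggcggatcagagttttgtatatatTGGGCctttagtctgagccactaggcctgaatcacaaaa
PBA1: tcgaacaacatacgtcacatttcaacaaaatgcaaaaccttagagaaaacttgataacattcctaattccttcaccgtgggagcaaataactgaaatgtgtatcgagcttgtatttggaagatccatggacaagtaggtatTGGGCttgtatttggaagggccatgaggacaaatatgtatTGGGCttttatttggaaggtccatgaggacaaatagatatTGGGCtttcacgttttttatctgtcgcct
RPT2a: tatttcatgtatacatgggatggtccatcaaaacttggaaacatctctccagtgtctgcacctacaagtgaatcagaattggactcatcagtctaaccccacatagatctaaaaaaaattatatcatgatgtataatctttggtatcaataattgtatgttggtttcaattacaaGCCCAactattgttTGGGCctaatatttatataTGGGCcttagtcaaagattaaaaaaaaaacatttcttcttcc

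The RPN6 window held 1 TGGGC, at position -39 from the gene start. The PBA1 window held 3, at positions -109, -69 and -29, each within a repeated stretch. The RPT2a window also held 3, of which the one at position -75 reads as GCCCA on the strand shown. Neither NAC window held TGGGC, and both held GAANNTTC, at position -96 in NAC078 and -199 in NAC053. In NAC078 the match is followed, after 2 more bases, by a further GAA. RPN5a holds the same arrangement at position -185, so that 2 of the 39 windows (5.13%) held it on either strand, against 0.386% of the 27443 windows of protein-coding genes. That longer arrangement was searched for after the NAC078 sequence had been seen.

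Of the 37 subunit genes, 15 (40.5%) held TGGGC, against 22.7% of the 27443 windows, and 10 (27.0%) held 2 or more, against 12.6%. By class, TGGGC was in 3 of 8 lid, 4 of 13 base, 3 of 9 alpha and 5 of 7 beta windows. The longer TGGGCC, which contains TGGGC, was in 11 (29.7%) of the subunit windows, against 13.7% of all windows. GAANNTTC was in 4 (10.8%), namely RPN5a, PAF1, PBC1 and PBG1, against 9.55% of all windows. These are matches of letters and not tests of binding.

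Aligned reads numbered 72075150 to 152118790 per library. The 39 genes received 128849 to 311577 of them, and no member had fewer than 731 reads in a library. Levels are given as CPM, counts per 1000000 reads of the library size after scaling by TMM factors, which align libraries on the bulk of features; fold changes are log2 values of the first group over the second with their standard error (SE). A gene was called at an adjusted p under 0.05 in edgeR's quasi-likelihood test with Benjamini-Hochberg adjustment over 26159 features, fitted to all 12 libraries, and every adjusted p below comes from that test. The heat labels were checked on HSP101, a chaperone that dissolves protein aggregates. It had 909 to 1259 CPM in primed heat shock, 642 to 854 CPM in heat shock, 20622 to 21465 CPM in priming and 36.8 to 40.5 CPM in control libraries. HSFA2 and HSP21 had also been planned as checks and are given as unscaled reads. HSFA2 had 4662 to 7737 reads in primed heat shock, 20135 to 21655 in heat shock, 89920 to 168973 in priming and 179 to 282 in control libraries. HSP21 had 79254 to 96290 reads in primed heat shock, 393 to 451 in heat shock, 22967 to 52434 in priming and 47 to 68 in control libraries. Shoot markers were abundant and differed between groups. LHCB1.3 was at 1790 to 2157 CPM in primed heat shock, 2351 to 3074 CPM in heat shock, 1942 to 2820 CPM in priming and 1526 to 1999 CPM in control libraries. RBCS1A was at 1718 to 1928 CPM in primed heat shock, 1234 to 1312 CPM in heat shock, 1418 to 1914 CPM in priming and 1111 to 1420 CPM in control libraries. RBCS3B was at 795 to 871 CPM in primed heat shock, 646 to 670 CPM in heat shock, 1172 to 1882 CPM in priming and 600 to 781 CPM in control libraries. RCA was at 3908 to 4475 CPM in primed heat shock, 2770 to 2931 CPM in heat shock, 3524 to 4572 CPM in priming and 1720 to 2423 CPM in control libraries. On the TMM scale RBCS3B (log2 fold change 1.03, adjusted p = 8.7e-05), RCA (0.87, adjusted p = 0.00017) and RBCS1A (0.35, adjusted p = 0.041) were called higher in priming against control and LHCB1.3 was not called, and with no scaling factor the values were 0.14, 0.00, -0.52 and -0.54 for RBCS3B, RCA, RBCS1A and LHCB1.3. The root markers did not move together. PYK10 was at 651 to 675 CPM in primed heat shock, 426 to 503 CPM in heat shock, 252 to 263 CPM in priming and 377 to 517 CPM in control libraries. BGLU21 was at 13.3 to 14.7 CPM in primed heat shock, 40.5 to 44.2 CPM in heat shock, 13.2 to 19.0 CPM in priming and 142 to 162 CPM in control libraries. MLP328 went the other way in priming, at 8.83 to 12.7 CPM in primed heat shock, 12.4 to 16.8 CPM in heat shock, 20.4 to 29.0 CPM in priming and 9.31 to 13.1 CPM in control libraries, and MRN1 was at or under 0.234 CPM in all libraries. With no scaling factor, PYK10 (-1.67) and BGLU21 (-4.11) were called lower in priming against control. MLP328 (0.30, adjusted p = 0.13) and MRN1 (-2.14, adjusted p = 0.065) were not called on that scale. Seed storage genes stayed at or under 11.2 CPM. Root and shoot marker levels thus differed between groups, and their part in the results below was not tested.

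In priming against control, nearly the whole proteasome moved together relative to other genes: 36 of the 39 genes were called higher and 0 lower, whereas with no scaling factor 2 were called higher and 16 lower. Over all features with TMM factors, 26.7% were called higher and 27.1% lower. These shares do not cover the counts with no scaling factor. On that scale the median of all features, given below, was itself below 0. All 8 lid, 11 of 13 base, all 9 alpha and all 7 beta genes were called higher, as was NAC078. The 3 genes not called were RPT2a, RPT2b and NAC053. With each of the 12 libraries left out in turn, 35 or 36 genes were called higher. DESeq2 called 36 higher and 0 lower, and no member was lower at an unadjusted p under 0.05 in either tool.

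The median log2 fold change of the 39 genes was 0.57 with TMM factors, against -0.02 over all features. Without a factor it was -0.30, against -0.88 over all features, so the direction of the median depends on the scaling. A scaling factor shifts all features alike, so the distance between the members and all features is nearly the same on both scales by construction. All 39 genes lay above the all-feature median with TMM factors and 38 without. TMM factors moved with the groups: they were 0.648 to 0.819 in priming and 1.25 to 1.44 in control libraries. Within single harvest dates, on the TMM scale, the median log2 difference between the priming and control library was 0.71, 0.63 and 0.38. These values carry the same TMM factors.

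**Figure D1:**
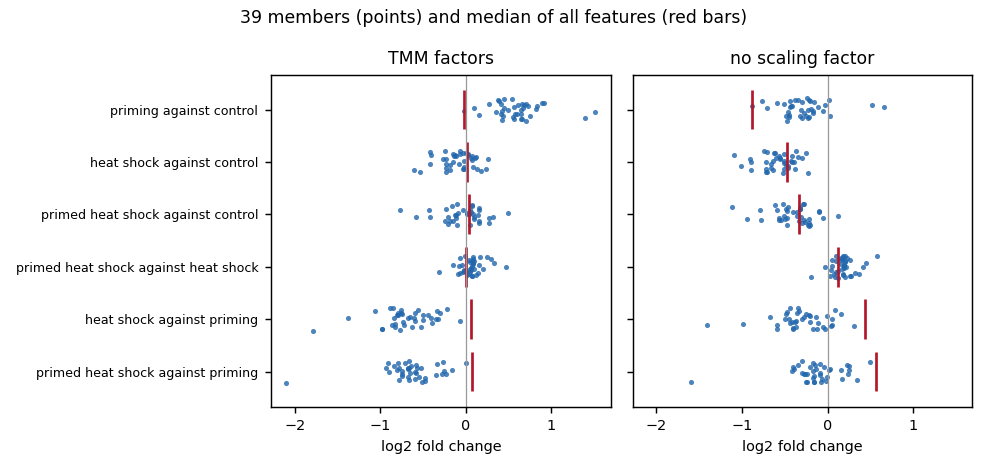
Log2 fold changes of the 39 genes (points) in 6 comparisons, with TMM factors on the left and no scaling factor on the right; red bars are the median of all features tested. In priming against control all 39 genes lie right of the red bar with TMM factors and 38 with no scaling factor, where RPT2b lies on the bar at -0.88 and most genes lie below 0.

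Summed over the 37 subunit genes, the level was 2483, 2239 and 2134 CPM in priming libraries, against 1477, 1408 and 1528 CPM in control libraries. In primed heat shock libraries it was 1561, 1438 and 1477 CPM, and in heat shock libraries 1421, 1429 and 1397 CPM. The priming libraries stood above all 9 others on this scale. As a share of reads on nuclear loci the order was different: the 37 genes took 0.320% to 0.337% in primed heat shock, 0.320% to 0.328% in heat shock, 0.312% to 0.325% in priming and 0.332% to 0.356% in control libraries. On that scale each priming library was below each control library. As a share of all reads without ribosomal RNA, organelles included, the genes took 0.142% to 0.167% in primed heat shock, 0.125% to 0.152% in heat shock, 0.161% to 0.183% in priming and 0.185% to 0.219% in control libraries. Plastid loci took 45.6% to 51.7% of aligned reads in primed heat shock and 49.6% to 57.0% in heat shock libraries. They took 39.9% to 46.9% in priming and 35.4% to 41.7% in control libraries, and their part in these shares was not tested.

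**Figure D2:**
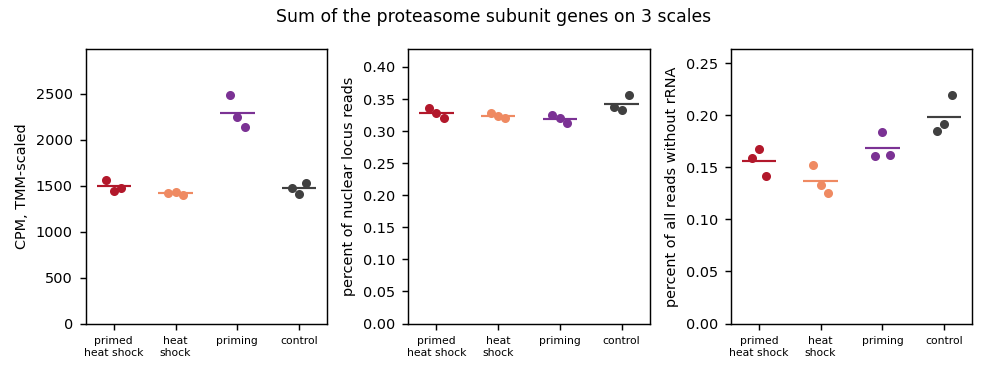
Sum of the 37 subunit genes per library (points; bars are group means, 3 libraries each) as TMM-scaled CPM, as percent of nuclear locus reads and as percent of all reads without ribosomal RNA. Priming stands highest on the first scale, at 2134 to 2483 CPM, and not on the other two.

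NAC078 (AT5G04410) had the largest rise of the 39 genes in priming. It had 192, 209 and 204 CPM in priming libraries, against 72.8, 71.5 and 67.8 CPM in control libraries, and the groups were far apart. The log2 fold change was 1.51 (SE 0.08, adjusted p = 9.0e-10), and it was also called higher with no scaling factor. NAC078 overlaps 2 genes on the opposite strand over 375 bases, and the strand setting of the counts was not given in the sources used here. NAC053 (AT3G10500), its close relative, had 42.1, 39.7 and 36.3 CPM in priming libraries, against 36.9, 36.3 and 32.7 CPM in control libraries. Its groups overlapped, and its log2 fold change was 0.16 (SE 0.08, adjusted p = 0.11), or -0.71 with no scaling factor.

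After 43 °C the NAC078 level was below control. It was 45.4, 48.8 and 47.3 CPM in primed heat shock, 63.1, 56.2 and 56.3 CPM in heat shock, and 67.8 to 72.8 CPM in control libraries, with no overlap between the 3 groups. NAC078 was called lower in primed heat shock against control (log2 fold change -0.58, SE 0.08, adjusted p = 2.2e-05), in heat shock against control (-0.27, SE 0.08, adjusted p = 0.011) and in primed heat shock against heat shock (-0.31, SE 0.08, adjusted p = 0.012). The call between heat shock and control was lost with upper-quartile factors and without heat shock replicate 2 or 3, and that between primed heat shock and heat shock with no scaling factor and without heat shock replicate 1 or primed heat shock replicate 1. NAC053 stayed between 32.7 and 42.1 CPM in all 12 libraries and was not called in any of the 6 comparisons. Its log2 fold changes were 0.16 (SE 0.08, adjusted p = 0.10) in primed heat shock and 0.08 (SE 0.08, adjusted p = 0.39) in heat shock against control, 0.07 (SE 0.08, adjusted p = 0.58) in primed heat shock against heat shock, -0.00 (SE 0.08, adjusted p = 0.99) in primed heat shock against priming and -0.07 (SE 0.08, adjusted p = 0.44) in heat shock against priming. On library totals alone NAC053 was called lower in priming against control (-0.71, adjusted p = 9.9e-05) and in heat shock against control (-0.39, adjusted p = 0.016), called higher in primed heat shock against priming (0.50, adjusted p = 0.0032), and not called in the other 3 comparisons. Upper-quartile factors gave a call of higher in primed heat shock against control (0.23, adjusted p = 0.021).

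**Figure D3:**
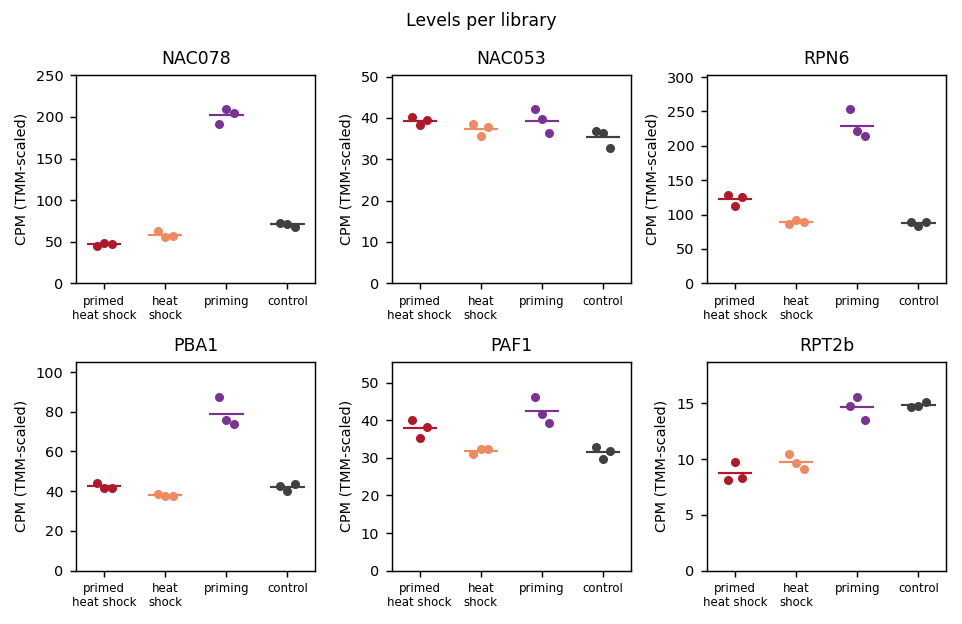
TMM-scaled CPM per library (points) and group means (bars) for both NAC genes and 4 subunit genes. NAC078, RPN6 and PBA1 are highest in priming, NAC053 stays between 32.7 and 42.1 CPM, PAF1 is higher in primed heat shock than in heat shock, and RPT2b is lowest after 43 °C.

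Among the lid genes, RPN6 (AT1G29150), which joins lid and base and holds the particle on the core, changed most in priming. It had 253, 221 and 214 CPM in priming libraries, against 89.7, 82.7 and 89.4 CPM in control libraries. The groups did not overlap, the log2 fold change was 1.40 (SE 0.09, adjusted p = 9.9e-09), and RPN6 was also called higher with no scaling factor (0.52). RPN11 (AT5G23540), the deubiquitinase of the lid, had 78.8, 60.4 and 58.6 CPM in priming libraries, against 42.2, 38.1 and 44.9 CPM in control libraries. Its log2 fold change was 0.66 (SE 0.12, adjusted p = 0.00026), and -0.22 with no scaling factor. The other 6 lid genes had log2 fold changes of 0.27 (RPN9a) to 0.65 (RPN5a) with TMM factors, and all 6 were below 0 with no scaling factor.

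Among the base genes, the RPT2 pair stood apart. The RPT2 subunit belongs to the ATPase ring and is known to help open the core's gate. RPT2a (AT4G29040) had 37.0, 37.0 and 35.9 CPM in priming libraries, against 34.3, 35.2 and 33.4 CPM in control libraries. Its paralogue RPT2b (AT2G20140) had 14.8, 15.6 and 13.5 CPM in priming libraries, against 14.6, 14.8 and 15.1 CPM in control libraries. The log2 fold changes were 0.10 (SE 0.08, adjusted p = 0.31) for RPT2a and -0.02 (SE 0.10, adjusted p = 0.90) for RPT2b. On library totals alone both were called lower, at -0.77 (adjusted p = 0.00012) for RPT2a and -0.88 (adjusted p = 9.3e-05) for RPT2b. The RPT2 pair is described because it went uncalled, which was seen in the values. The other 11 base genes were all called higher with TMM factors, at log2 fold changes of 0.42 (RPT3) to 0.72 (RPT4a), and all 11 were below 0 with no scaling factor. RPN10, a ubiquitin receptor, had 78.4, 65.0 and 65.2 CPM in priming libraries, against 46.3, 41.5 and 46.1 CPM in control libraries. RPT4a (AT5G43010), an ATPase of the same ring, had 42.4, 36.1 and 32.7 CPM in priming libraries, against 21.3, 21.9 and 24.3 CPM in control libraries, a log2 fold change of 0.72 (SE 0.10, adjusted p = 1.7e-05), and -0.16 with no scaling factor. RPN1a (AT2G20580), a scaffold that receives ubiquitin receptors, had 184, 161 and 157 CPM in priming libraries, against 102, 101 and 106 CPM in control libraries, a log2 fold change of 0.70 (SE 0.08, adjusted p = 6.1e-06), and -0.17 with no scaling factor.

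In the core, all 16 alpha and beta genes were called higher in priming with TMM factors, and none with no scaling factor. PBA1 (AT4G31300), the catalytic beta subunit with caspase-like activity, had 87.7, 76.0 and 73.8 CPM in priming libraries, against 42.7, 40.0 and 43.8 CPM in control libraries. The groups did not overlap, and the log2 fold change was 0.91 (SE 0.08, adjusted p = 3.4e-07), or 0.03 with no scaling factor. PBB1 (AT3G27430), which carries the trypsin-like activity, had 53.5, 46.5 and 45.4 CPM in priming libraries, against 32.6, 26.9 and 33.6 CPM in control libraries, a log2 fold change of 0.64 (SE 0.09, adjusted p = 4.1e-05). PBE1 (AT1G13060), which carries the chymotrypsin-like activity, had 38.6, 40.8 and 36.6 CPM in priming libraries, against 30.9, 29.4 and 30.7 CPM in control libraries, a log2 fold change of 0.35 (SE 0.09, adjusted p = 0.0028). The values were -0.23 for PBB1 and -0.51 for PBE1 with no scaling factor. The structural beta gene PBG1 (AT1G56450) had a log2 fold change of 0.89 (SE 0.09, adjusted p = 1.1e-06), and 0.02 with no scaling factor. The alpha genes ranged from 0.43 (PAF1) to 0.84 (PAE2). PAE2 (AT3G14290) and PAG1 (AT2G27020) had log2 fold changes of 0.84 (SE 0.08, adjusted p = 4.0e-07) and 0.82 (SE 0.08, adjusted p = 1.1e-06), and of -0.03 and -0.05 with no scaling factor.

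**Figure D4:**
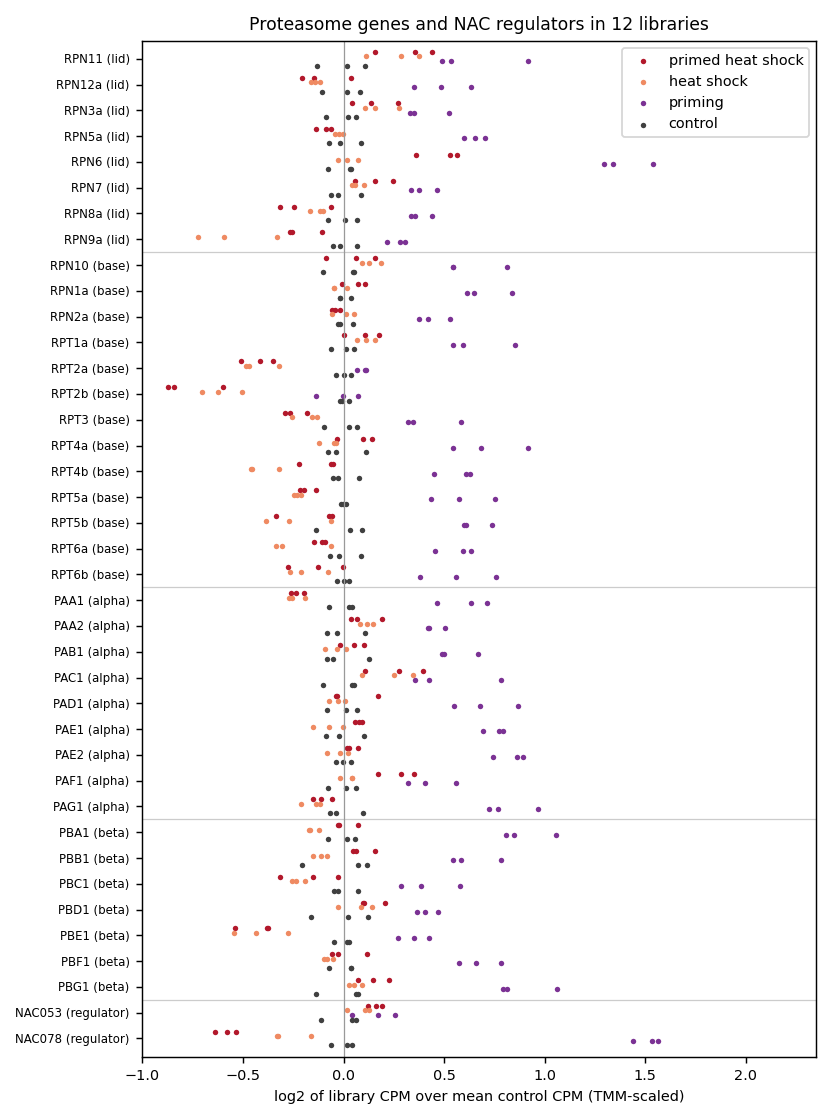
Log2 of each library's TMM-scaled CPM over the mean of the control libraries, for the 39 genes by class; each point is 1 library. Priming libraries lie to the right for most genes, RPN6 and NAC078 furthest, and with no scaling factor only these 2 genes were called higher; on the TMM scale drawn, RPT2a and RPT2b lie at control level in priming and left of it after 43 °C, and with no scaling factor both were called lower in priming.

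In heat shock against control, no gene was called higher and 9 of 39 were called lower, where 27.9% of all features were higher and 24.5% lower. The share of lower genes was thus near that of all features. The genes called lower were NAC078, the lid gene RPN9a, the base genes RPT2a, RPT2b, RPT4b, RPT5a and RPT6a, the alpha gene PAA1 and the beta gene PBE1. Among the members, 1 was higher at an unadjusted p under 0.05 in edgeR, and DESeq2 called 0 higher, with 3 at an unadjusted p under 0.05. The member median was -0.07, against 0.01 over all features. On library totals alone, with no scaling factor, 36 genes were called lower, with a median of -0.56 against -0.48 over all features. Without priming replicate 1 in the fit, 2 genes were called higher, and without heat shock replicate 3, 5 were called lower.

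RPT2b had 10.4, 9.61 and 9.12 CPM in heat shock libraries, below the 14.6 to 15.1 CPM of the control libraries (log2 fold change -0.61, SE 0.10, adjusted p = 8.8e-05). RPN9a (AT5G45620), a structural lid subunit, had 19.4, 14.8 and 16.1 CPM in heat shock libraries, against 24.0, 23.5 and 25.5 CPM in control libraries (log2 fold change -0.54, SE 0.10, adjusted p = 0.00027). RPT2a had 27.5, 24.7 and 24.5 CPM in heat shock libraries, against 33.4 to 35.2 CPM in control libraries (log2 fold change -0.42, SE 0.08, adjusted p = 0.00029). PBE1 had 25.0, 20.8 and 22.4 CPM in heat shock libraries, against 29.4 to 30.9 CPM in control libraries (log2 fold change -0.41, SE 0.09, adjusted p = 0.00086). For these 4 genes each heat shock library was below each control library. They were chosen from the called genes, so this adds no support to the calls, and the share over all features is not given here. RPT4b had 34.8, 31.5 and 31.7 CPM in heat shock libraries, against 41.9, 42.6 and 45.8 CPM in control libraries. PAA1 (AT5G35590) had a log2 fold change of -0.24 (SE 0.08, adjusted p = 0.020), and the call was lost with upper-quartile factors, without heat shock replicate 3, or when PAA1 and PAA2 were summed.

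In primed heat shock against control, 3 genes were called higher and 7 lower. Over all features, 32.1% were higher and 27.2% lower. Both shares of the members were thus below those of all features. The higher genes were RPN6, RPN11 and the alpha gene PAF1, and the lower ones NAC078, RPN8a, RPT2a, RPT2b, RPT3, PAA1 and PBE1. The member median was 0.01, against 0.03 over all features. The counts were 0 higher and 23 lower with no scaling factor, a setting that the shares of all features above do not cover. DESeq2 called 4 higher and 7 lower. Without control replicate 2 or primed heat shock replicate 1, 1 gene was called higher, and without control replicate 1 or primed heat shock replicate 2, 4 were called lower.

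RPN6 had 129, 112 and 126 CPM in primed heat shock libraries, against 82.7 to 89.7 CPM in control libraries. The groups did not overlap, and the log2 fold change was 0.49 (SE 0.09, adjusted p = 0.00032), or 0.12 with no scaling factor. RPN11 had 56.6, 46.5 and 53.3 CPM in primed heat shock libraries, against 38.1 to 44.9 CPM in control libraries (log2 fold change 0.32, SE 0.12, adjusted p = 0.029, and -0.05 with no scaling factor). PAF1 (AT5G42790) had 40.1, 35.4 and 38.3 CPM in primed heat shock libraries, against 32.8, 29.8 and 31.8 CPM in control libraries (log2 fold change 0.27, SE 0.08, adjusted p = 0.011, and -0.10 with no scaling factor). The calls of RPN11 and PAF1 were both lost without control replicate 2 or primed heat shock replicate 1, that of RPN11 also without control replicate 1 or primed heat shock replicate 3, and that of PAF1 also with no low-count filter. The RPN6 call was lost with no scaling factor. RPT2b had 8.10, 9.78 and 8.28 CPM in primed heat shock libraries, the lowest levels of any subunit gene per length in that group (log2 fold change -0.76, SE 0.10, adjusted p = 7.6e-06). RPT2a and PBE1 had log2 fold changes of -0.42 (SE 0.08, adjusted p = 0.00021) and -0.43 (SE 0.09, adjusted p = 0.00050). PAA1 had a log2 fold change of -0.23 (SE 0.08, adjusted p = 0.021), and the call was lost with upper-quartile factors, without control replicate 1 or primed heat shock replicate 2, or when PAA1 and PAA2 were summed. For RPT2a, RPT2b, PAA1 and PBE1 the values against control in primed heat shock and in heat shock come from the same control libraries.

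The contrast of primed heat shock with heat shock holds age and the 43 °C treatment equal and asks what the earlier 38 °C treatment left behind. In it, 4 genes were called higher, namely RPN6, RPN9a, RPT4b and PAF1, and 1 lower, NAC078. Over all features, 12.1% were higher and 10.7% lower. The share of members called higher was thus near that of all features, and the share called lower was below it. RPN6 had 129, 112 and 126 CPM in primed heat shock libraries, against 85.8, 91.7 and 88.5 CPM in heat shock libraries (log2 fold change 0.47, SE 0.09, adjusted p = 0.0017), and it was also called higher with no scaling factor (0.58). RPN9a had 20.3, 22.6 and 20.4 CPM in primed heat shock libraries, against 14.8 to 19.4 CPM in heat shock libraries (log2 fold change 0.33, SE 0.10, adjusted p = 0.021). RPT4b (AT1G45000) had 41.8, 41.5 and 37.3 CPM in primed heat shock libraries, against 34.8, 31.5 and 31.7 CPM in heat shock libraries (log2 fold change 0.30, SE 0.08, adjusted p = 0.017). PAF1 had 35.4 to 40.1 CPM in primed heat shock libraries, against 31.1, 32.4 and 32.4 CPM in heat shock libraries (log2 fold change 0.25, SE 0.08, adjusted p = 0.043). In each of these 4 genes the groups did not overlap. The genes were chosen for being called, so this adds no support to the calls, and the share over all features is not given here. The count of genes called higher was 1 without heat shock replicate 2 or 3 and 2 without primed heat shock replicate 1 or 2, and RPN6 alone was called higher in all 4 of these fits. The PAF1 call was also lost with RLE, upper-quartile and no scaling factors and with no low-count filter, and those of PAF1, RPN9a and RPT4b were lost when each was summed with its paralogue. The counts were 1 higher and 0 lower with no scaling factor.

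Against priming, both 43 °C groups had lower levels. In heat shock, 38 of 39 genes were called lower and 0 higher, with NAC053 the exception, where 29.0% of all features were lower and 33.8% higher. In primed heat shock, 36 were called lower and 0 higher, the exceptions being NAC053, PAC1 and PAF1, where 28.6% of all features were lower and 34.3% higher. In both contrasts, no member was higher at an unadjusted p under 0.05 in edgeR or DESeq2. The member medians were -0.73 in heat shock and -0.65 in primed heat shock, against 0.06 and 0.07 over all features. With no scaling factor the calls were 20 lower and 0 higher in heat shock, and 5 lower and 2 higher (NAC053 and PAF1) in primed heat shock. The medians were then -0.34 and -0.15, against 0.43 and 0.57 over all features. NAC078 had the largest differences, -1.78 (SE 0.08, adjusted p = 1.4e-10) in heat shock and -2.10 (SE 0.08, adjusted p = 4.3e-11) in primed heat shock. RPN6 had -1.37 (SE 0.09, adjusted p = 1.1e-08) in heat shock and -0.91 (SE 0.09, adjusted p = 8.6e-07) in primed heat shock. PBA1 had -1.06 (SE 0.08, adjusted p = 5.1e-08) in heat shock and -0.90 (SE 0.08, adjusted p = 3.1e-07) in primed heat shock.

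By class, the genes with the 2 largest differences from priming included, beside RPN6 and PBA1, the following. For heat shock they were RPN9a at -0.81 (SE 0.10, adjusted p = 4.2e-06), RPT4b at -0.98 (SE 0.08, adjusted p = 1.4e-07), RPT5b, an ATPase of the base, at -0.88 (SE 0.11, adjusted p = 5.6e-06), PAG1 at -0.98 (SE 0.08, adjusted p = 1.4e-07), PAE2 at -0.86 (SE 0.08, adjusted p = 2.2e-07) and PBG1 at -0.83 (SE 0.09, adjusted p = 1.5e-06). All 6 were also called lower with no scaling factor. For primed heat shock they were RPN5a, a lid scaffold, at -0.75 (SE 0.07, adjusted p = 6.8e-07), RPT5b at -0.80 (SE 0.11, adjusted p = 1.6e-05), RPT5a at -0.78 (SE 0.08, adjusted p = 1.7e-06), PAG1 at -0.93 (SE 0.08, adjusted p = 2.6e-07), PAA1 at -0.84 (SE 0.08, adjusted p = 4.3e-07) and PBE1 at -0.78 (SE 0.09, adjusted p = 1.9e-06). PAG1 and PAA1 were also called lower with no scaling factor, whereas the calls of RPN5a, RPT5a, RPT5b and PBE1 were lost. These contrasts share the priming libraries with priming against control and are not independent of it.

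Levels differed widely between single subunit genes. The complex holds its subunits in fixed proportion, but genes of a paralogue pair encode the same subunit, so these ranges do not measure that proportion. The genes at the low end, RPT2b and RPT5b, are each the lower gene of a pair. Per kilobase of gene model, the 37 subunit genes ranged from 5.40 CPM (RPT2b) to 78.0 CPM (RPN6) in primed heat shock, from 5.62 (RPT5b) to 66.4 CPM (RPT1a) in heat shock, from 9.06 (RPT2b) to 146 CPM (RPN6) in priming and from 6.61 (RPT5b) to 61.5 CPM (RPT1a) in control. Many subunits are encoded by a pair of paralogues, of which some lie outside the 39. With paralogues summed and RPN13 added, 31 of 32 subunit families were called higher in priming against control and 0 lower. In primed heat shock against control, 6 were called higher and 3 lower. Over single features, 26.7% were higher and 27.1% lower in the first comparison, and 32.1% higher and 27.2% lower in the second.

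**Figure D5:**
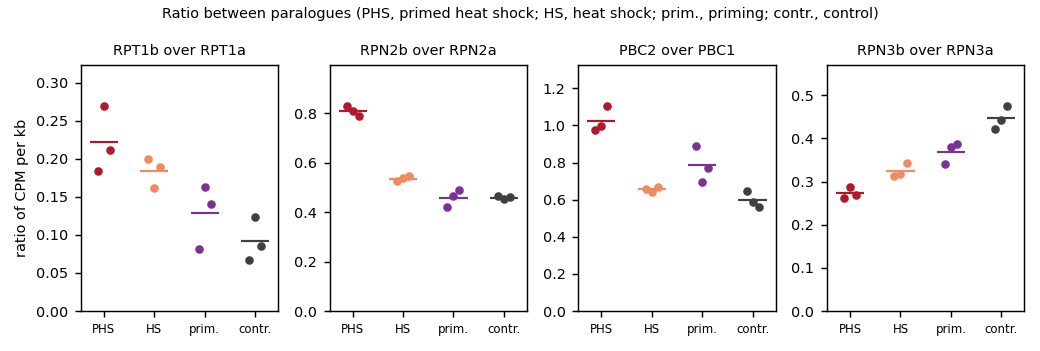
Ratio of CPM per kilobase between paralogues in each library (points) with group means (bars), for the 4 pairs with the widest range of group means among pairs at 5 CPM or more. The means of RPN2b over RPN2a, PBC2 over PBC1 and RPT1b over RPT1a are highest in primed heat shock, and that of RPN3b over RPN3a is lowest there.

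The balance within some pairs differed between groups. RPN2b over RPN2a, genes of a base scaffold, was 0.788 to 0.828 in primed heat shock, 0.525 to 0.545 in heat shock, 0.422 to 0.488 in priming and 0.452 to 0.465 in control libraries. The primed heat shock libraries stood above all others. PBC2 over PBC1, genes of a structural beta subunit, was 0.976 to 1.10 in primed heat shock, 0.640 to 0.669 in heat shock, 0.694 to 0.891 in priming and 0.563 to 0.649 in control libraries. RPN3b over RPN3a, genes of a lid scaffold, was 0.263 to 0.289 in primed heat shock, 0.313 to 0.343 in heat shock, 0.340 to 0.386 in priming and 0.422 to 0.474 in control libraries. RPT1b over RPT1a, genes of an ATPase of the base, had the widest range of group means among pairs at 5 CPM or more, 2.41-fold. It was 0.184 to 0.269 in primed heat shock, 0.162 to 0.200 in heat shock, 0.0819 to 0.163 in priming and 0.0671 to 0.124 in control libraries, so that both 43 °C groups stood above control and overlapped each other. Among pairs with both genes in the set, PAA2 over PAA1, genes of an alpha subunit, was 1.13 to 1.23 in primed heat shock, 1.13 to 1.24 in heat shock, 0.765 to 0.906 in priming and 0.888 to 0.988 in control libraries. Both groups at 43 °C stood above both others in that ratio. RPT2b over RPT2a was 0.315 to 0.362 in primed heat shock, 0.372 to 0.388 in heat shock, 0.375 to 0.421 in priming and 0.418 to 0.451 in control libraries. These ratios do not depend on a scaling factor, and the differences between paralogues were not tested.

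Of 9 lid and base genes outside the 39, 7 were called higher and 0 lower in priming against control. Of 8 other core genes, 7 were higher and 1 lower in that comparison, where 26.7% of all features were higher and 27.1% lower. In primed heat shock against control, 3 of the 9 were higher and 1 lower, where 32.1% of all features were higher and 27.2% lower. The share of higher genes was thus near that of all features. RPT1b had the largest change of the 9 in each group against control. It had 27.0, 34.9 and 29.6 CPM in primed heat shock, 27.2, 23.5 and 26.6 CPM in heat shock, 19.2, 31.9 and 26.5 CPM in priming and 8.78, 15.4 and 11.4 CPM in control libraries, and each heated library stood above each control library. Its log2 fold changes against control were 1.36 (SE 0.21, adjusted p = 0.00014) in primed heat shock, 1.12 (SE 0.21, adjusted p = 0.00075) in heat shock and 1.13 (SE 0.21, adjusted p = 0.00066) in priming. On library totals alone they were 1.00 (adjusted p = 0.0044), 0.63 (adjusted p = 0.047) and 0.28 (adjusted p = 0.34) in primed heat shock, heat shock and priming. RPN13, a ubiquitin receptor of the base, had 33.1 to 35.6 CPM in primed heat shock, 22.3 to 23.2 CPM in heat shock, 28.9 to 32.9 CPM in priming and 17.7 to 18.7 CPM in control libraries. Its log2 fold change was 0.91 (SE 0.08, adjusted p = 1.2e-07) in primed heat shock against control and 0.59 (SE 0.08, adjusted p = 4.9e-05) against heat shock. RPN2b had 76.4 to 77.9 CPM in primed heat shock libraries, against 51.3 to 53.3 CPM in heat shock libraries (log2 fold change 0.55, SE 0.07, adjusted p = 4.3e-05). PBC2 had 17.2 to 18.6 CPM in primed heat shock libraries, against 10.6 to 11.2 CPM in heat shock libraries (log2 fold change 0.71, SE 0.09, adjusted p = 4.7e-05). On library totals alone, 0 of the 9 and 0 of the 8 were called higher in priming against control. Called lower on that scale were the lid and base genes RPN2b, RPN3b, RPN5b, RPN8b and RPN9b, and the core genes PAC2, PAD2 and PAF2.

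Of 12 accessory genes (among them assembly chaperones, an activator and deubiquitinases), 10 were called higher and 0 lower in priming against control. In primed heat shock against control, 5 were called higher and 3 lower. Over all features, 26.7% were higher and 27.1% lower in the first comparison, and 32.1% higher and 27.2% lower in the second. UBP6, a deubiquitinase that docks on the base, had 46.6 to 53.9 CPM in primed heat shock libraries, against 32.2 to 35.0 CPM in heat shock libraries (log2 fold change 0.57, SE 0.08, adjusted p = 0.00013). Of 10 genes that deliver substrates, 9 were called higher and 0 lower in priming against control. CDC48B, one of the CDC48 ATPases that extract ubiquitinated proteins, had 486, 527 and 512 CPM in priming libraries, against 68.8, 63.1 and 54.6 CPM in control libraries (log2 fold change 3.03, SE 0.11, adjusted p = 5.3e-12). DDI1, a shuttle protein, had a log2 fold change of 1.02 (SE 0.07, adjusted p = 2.5e-08). With no scaling factor CDC48B was called higher (2.18, adjusted p = 3.3e-11) and DDI1 was not called (0.15, adjusted p = 0.34). Of the accessory genes, 0 were called higher and 6 lower with no scaling factor, and 1 delivery gene was higher and 2 lower.

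The COP9 signalosome, a relative of the lid that removes NEDD8 from cullins, gave a comparison outside the proteasome. Of its 10 genes, 8 were called higher and 0 lower in priming against control, with a median of 0.64 beside 0.57 for the 39 genes. Over all features, 26.7% were higher and 27.1% lower. With no scaling factor, 1 was higher and 3 lower. CSN7 had 70.3, 71.4 and 73.6 CPM in priming libraries, against 12.3, 11.3 and 12.7 CPM in control libraries (log2 fold change 2.57, SE 0.08, adjusted p = 1.5e-12). In primed heat shock against control, 5 of the 10 were called higher and 1 lower, where 32.1% of all features were higher and 27.2% lower.

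Counting limits some values. Of the 39 genes, 12 overlap another gene and 10 overlap one on the opposite strand, among them RPN5a, RPN11, RPT1a, PBG1 and NAC078, and reads from such partners cannot be told apart where strand was not used. For 5 genes over 10% of 31-base words of the transcript occur in another locus, up to 21.0% in RPT1a, and RPT6a and RPT6b share words with each other, so the values of these genes are uncertain.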

How the data were processed

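Whole-seedling RNA was sequenced from ribosomal RNA-depleted, strand-specific libraries, per the labels. The authors deposited whole-number counts, 1 per reference sequence and library, whose 4 columns follow the index statistics that SAMtools writes. Per the submitters' processing notes, Bowtie2, SAMtools, DESeq2 and build TAIR10 were used. Not given in the sources used here are versions, a strand setting and the treatment of reads with several matches. Groups came from titles and treatment labels. Library sizes and tests left out unplaced reads and 17 ribosomal RNA loci (0.421% to 0.934% of aligned reads). Aligned reads were 82.4% to 88.7% of all reads.

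Tests used edgeR 4.0.16 in R 4.3.3: TMM factors (0.648 to 1.44), the filter filterByExpr with 10 as its minimum count, 1 quasi-likelihood fit, robust, with 4 group means (biological coefficient of variation 0.143) and Benjamini-Hochberg adjustment over 26159 features. The procedure was tested on simulated data. The members and gene lists were chosen with earlier results of these data known. Full statistics are given for both NAC genes, for the 2 members of each class with the largest called change in each comparison, for PBA1, PBB1 and PBE1 in priming against control, and for some of the 3 called genes with the largest change in each other list. Values of other members are given by level or by log2 fold change alone. The exceptions are RPT2a and RPT2b in priming against control, which were added after their values were seen. Shoot and root markers had been planned by level only, and their fold changes in priming against control were added. The locus for PAC2 was corrected after the annotation had been read. Alternatives were the replicate block, RLE, upper-quartile and no scaling factors, nuclear loci alone, no filter, ribosomal RNA kept, only the groups compared, paralogues summed, DESeq2 1.42.0, and each library left out.

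The labels tie each replicate number to 1 harvest date, so numbers pair the libraries. Deviations from group means correlated at -0.08 to 0.13 over 18 same-date pairs. Promoters were read from the RefSeq TAIR10.1 genome. Figures used matplotlib 3.10.9.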

Additional observations from a re-analysis of the deposited data

How the results depend on the processing

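Scaling was the choice that moved the counts most. The share of all features called with no scaling factor is not given here, so counts on that scale have no background beside them. With no scaling factor, the 39 genes gave 2 called higher and 16 lower in priming against control, 36 lower in heat shock against control, 0 higher and 23 lower in primed heat shock against control, 1 higher and 0 lower in primed heat shock against heat shock, 20 lower in heat shock against priming, and 2 higher and 5 lower in primed heat shock against priming. Upper-quartile factors gave 5 higher and 5 lower in heat shock against control, and 8 higher and 4 lower in primed heat shock against control. Nuclear loci alone gave 1 higher in heat shock against control and 5 higher in primed heat shock against control, and a fit of only the libraries compared gave 2 higher in heat shock against control. Leaving out 1 library at a time gave 35 to 36 higher in priming against control, 0 to 2 higher and 5 to 12 lower in heat shock against control, 1 to 4 higher and 4 to 8 lower in primed heat shock against control, 1 to 4 higher and 0 to 1 lower in primed heat shock against heat shock, 36 to 38 lower in heat shock against priming, and 32 to 38 lower in primed heat shock against priming. The cause was not tested.

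With the replicate block, the harvest date as a term, 36 genes were called higher in priming against control, 9 lower in heat shock against control and 38 lower in heat shock against priming, and primed heat shock against priming gave 37 lower where the fit without the block gave 36. The block left the other counts at their value.

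Of 1161 values for 54 results on single genes, 1083 kept direction and side of the threshold, 49 lost the call, 1 gained it and 28 changed sign. The sign changed with no scaling factor in priming against control for NAC053 (-0.71), RPN11 (-0.22), RPT4a (-0.16), RPN1a (-0.17), PAE2 (-0.029), PAG1 (-0.053), PBB1 (-0.23) and PBE1 (-0.51), in heat shock against control for NAC053 (-0.39), and in primed heat shock against control for NAC053 (-0.20), RPN11 (-0.052) and PAF1 (-0.10). In heat shock against priming, NAC053 was at 0.069 with upper-quartile and 0.31 with no scaling factors. In primed heat shock against priming, where NAC053 was not called and its log2 fold change was -0.00, it was above 0 at 0.0011 with the replicate block, 0.011 with RLE factors, 0.12 with upper-quartile factors, 0.50 with none, 0.021 with nuclear loci alone, 0.0067 without the filter, 0.011 in DESeq2 and between -0.058 and 0.046 with 1 library left out. Depth was not limiting, since the lowest count of a member was 731 reads.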
